A study of Mus musculus with 16 samples.

Results

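Polycomb group proteins keep developmental genes silent, and 10 genes of their core complexes were followed in growing mouse oocytes lacking Hdac1, Hdac2 or both. The members were the genes whose probe sets carry exactly 1 of the symbols Ezh1, Ezh2, Eed, Suz12, Jarid2, Rnf2, Ring1, Bmi1, Cbx2 and Cbx7 in the platform annotation. All 10 were found, with 11 probe sets, among 18820 genes measured by 21218 probe sets of 1 symbol. Eed had a second, dim probe set, and the other 9 genes had 1 each. The first 5 belong to Polycomb repressive complex 2 (PRC2) and the other 5 to Polycomb repressive complex 1 (PRC1).

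The study measured RNA from oocytes of C57BL/6 mice on Affymetrix Mouse 1.1 ST arrays, 1 array per sample. Its 4 genotypes, with 4 biological replicates each, were wild type, Hdac1 knockout, Hdac2 knockout and a double knockout of both genes, all from ovaries of mice aged 12 days. Mutant oocytes came from conditional alleles of Hdac1 and/or Hdac2 cut by a Zp3-Cre transgene, whose zona pellucida promoter is active in growing oocytes, so that the genes are lost during growth and not before it. Each sample pooled 80 oocytes. The sources used here do not say whether wild type mice carried conditional alleles without Cre. The labels name no litters or animals behind the replicates, so p-values measure the spread between these samples.

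PRC2 places methyl groups on H3K27, a lysine in the tail of histone H3, through either of the catalytic subunits Ezh1 and Ezh2, which need Eed and Suz12 to work. PRC1 attaches ubiquitin to histone H2A through the E3 ligases Rnf2 (RING1B) and Ring1, and its canonical forms hold a Cbx protein that reads methylated H3K27. HDAC1 and HDAC2 are histone deacetylases of several corepressor complexes. In growing oocytes PRC2 lays down broad H3K27 methylation over the maternal genome, and for some genes this mark silences the maternal copy in the embryo.

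The promoters of the 3 PRC2 genes that fell furthest in the double knockout, and that of Ezh2 as the PRC2 catalytic gene that did not, are shown first, because these genes share a complex and moved differently. Each is the 250 bases before a transcription start in the RefSeq promoter table (GRCm38.p6), written 5′ to 3′ on the gene's strand. Ezh1 lies at chr11:101226464-101226713 on the minus strand, Eed at chr7:89980977-89981226 on the minus strand, Suz12 at chr11:79992856-79993105 on the plus strand and Ezh2 at chr6:47595031-47595280 on the minus strand. Capitals mark each match, on either strand, to the CCAAT box (CCAAT), the GC box (GGGCGG) or an E2F site (GCGGGAA).
Ezh1: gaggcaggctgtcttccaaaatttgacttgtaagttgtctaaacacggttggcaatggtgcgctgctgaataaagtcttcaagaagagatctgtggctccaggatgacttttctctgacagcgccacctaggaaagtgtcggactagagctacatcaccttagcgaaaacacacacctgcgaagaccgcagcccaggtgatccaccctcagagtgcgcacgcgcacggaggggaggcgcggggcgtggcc
Eed: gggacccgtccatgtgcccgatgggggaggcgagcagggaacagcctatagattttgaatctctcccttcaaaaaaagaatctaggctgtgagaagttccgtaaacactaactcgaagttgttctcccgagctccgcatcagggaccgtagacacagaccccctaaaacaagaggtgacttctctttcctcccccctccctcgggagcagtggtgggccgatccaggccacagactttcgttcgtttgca
Suz12: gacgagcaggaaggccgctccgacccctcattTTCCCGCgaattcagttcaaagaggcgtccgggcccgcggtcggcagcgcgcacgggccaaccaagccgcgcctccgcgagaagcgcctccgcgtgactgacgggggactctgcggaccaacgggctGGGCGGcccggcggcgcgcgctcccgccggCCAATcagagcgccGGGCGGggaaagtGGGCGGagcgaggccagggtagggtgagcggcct
Ezh2: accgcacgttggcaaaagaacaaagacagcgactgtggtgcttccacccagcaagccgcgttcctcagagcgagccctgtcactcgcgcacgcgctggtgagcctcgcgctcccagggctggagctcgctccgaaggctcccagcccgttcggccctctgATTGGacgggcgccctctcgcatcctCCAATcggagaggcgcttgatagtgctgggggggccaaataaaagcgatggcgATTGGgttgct

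The 4 windows differed in the letters they held. The windows of Ezh1 and Eed held no match to any of 7 motifs searched on both strands, namely the 3 above, the E-box CACGTG, the TATA box TATAAA, an ETS core (CCGGAAG) and the NRF1 palindrome. Suz12 had 3 GC boxes, 1 CCAAT box and 1 E2F match, and Ezh2 had 3 CCAAT boxes, with no overlap between matches. Over all 32851 promoters of the table, 33.8% held CCAAT, 32.7% GGGCGG, 3.82% GCGGGAA, 6.02% CACGTG, 12.4% TATAAA, 6.91% CCGGAAG and 0.782% the NRF1 site. Base composition also differed, with 55.2% G and C in Ezh1, 54.4% in Eed, 63.6% in Ezh2 and 73.6% in Suz12, against a median of 52.4% over the table. The table held 10 promoters of 9 members (none for Cbx2), and in the other members a GC box was present in each promoter of Jarid2, Rnf2, Ring1, Bmi1 and Cbx7. Those promoters held 64.8 to 73.6% G and C, and the motif shares over the table are not matched to them in base composition. A match is a run of letters and was not tested as a binding site, and the arrays measured no promoter.

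Values are log2 signals as deposited, and the base was inferred from their range because the sources used here do not state it, so fold values rest on that reading. Signals of different probe sets cannot be set against each other. The arrays of 1 genotype correlated at 0.995 to 0.998 over the tested probe sets, and array medians lay between 4.46 and 4.59. Hdac1, the check of the labels, was at 9.28 in wild type and fell to 6.62 with Hdac1 deleted (15.8%). It read 9.64 with Hdac2 deleted (129%, adjusted p = 0.0172, limma) and 7.66 with both deleted (32.5%). A second Hdac1 probe set gave 15.3% with Hdac1 deleted and 32.2% with both. Hdac1 was thus 2.06-fold higher in the double than in the Hdac1 knockout (adjusted p = 5.22e-08, limma). The second probe set was called in the same 2 comparisons. The part of this difference in the results was not tested. Hdac2 kept 93.5% of wild type signal when it was deleted alone (adjusted p = 0.330, limma) and 86.2% when both were (adjusted p = 0.00274, limma), so its single probe set does not show the deletion. Oocyte markers had a summed linear signal over 14 genes of 42200 to 43900 in every genotype, a sum that weighs the brightest genes most. Of them 1 was higher in the double knockout, Sohlh1 (2.11-fold, from 6.10). The 4 lower ones were Figla (-0.56), Ddx4 (-0.32), Dazl (-0.17) and Kit (-0.17). Markers of theca and stroma (9 measured, all dim) summed to 139 to 156 in every genotype, with 1 higher in the double knockout. Granulosa cell markers summed to 1040 to 1140 in wild type and 654 to 697 in the double knockout (2 higher and 2 lower of 10), mostly through Nr5a2 (9.82 to 8.74). Kitl was the other lower one (4.78 to 4.40), and Gja1 (5.65 to 6.39) and Inha (4.24 to 4.83) were the higher ones. The defining markers Foxl2 (4.71 and 4.78) and Amh (3.45 and 3.43) were dim and not called. Blood, immune and endothelial markers summed to 582 to 647 and 304 to 384 (1 higher and 2 lower of 8), mostly through Pecam1 (8.42 to 7.04). The part of these marker shifts in the results was not tested. In pooled oocytes a loss of RNA per cell and a loss of contributing cells cannot be told apart.

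Loss of both deacetylases lowered 3 core PRC2 genes to between 74.2% and 76.1% of their wild type signal and lowered Jarid2 to 91.0%, while Ezh2 and the 5 PRC1 genes were not called. No member was called in either single knockout. A gene was called at an adjusted p under 0.05 from 1 limma model over all 16 arrays, with p-values adjusted by Benjamini and Hochberg's method over all 21218 probe sets. In the double knockout against wild type 4 of 10 members were called, all lower, which is 40%, beside 38.3% of all probe sets called. By direction, 19.8% of all probe sets were lower and 18.5% higher. The share of members called was near the background. The share called lower was 40%, beside 19.8% of all probe sets, a difference between 10 genes and the background that was not tested. It includes Jarid2, whose call was lost in 11 of the 16 fits that left out 1 array. All 10 members lay above the median signal of 5.27 of the tested probe sets. This background includes dim probe sets and is not matched to them in signal. The median change of the PRC2 genes was -0.39 and that of the PRC1 genes 0.02, against -0.01 over all probe sets. Whether the complexes differ was not tested.

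**Figure D1:**
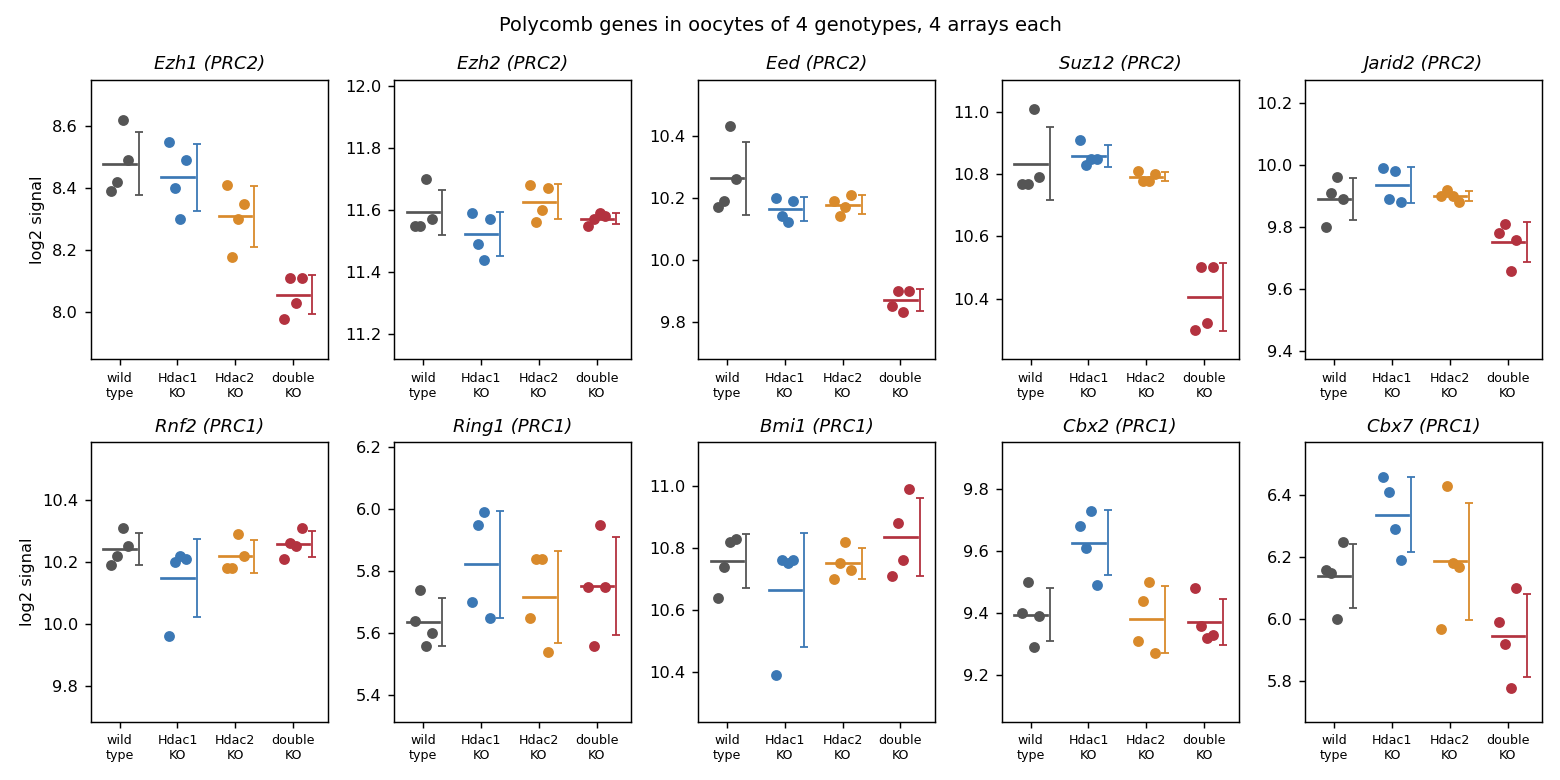
Log2 signal of each Polycomb gene on every array (points) in the 4 genotypes, with the group mean (line) and SD (bar at the right, n = 4), on vertical axes that all span the same range. The double knockout arrays of Ezh1, Eed and Suz12 lie below every array of the other 3 genotypes, while those of Ezh2 overlap with them.

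Suz12, the subunit that holds PRC2 together, fell in the double knockout and in neither single knockout by the test. Its wild type arrays read 10.77, 10.77, 11.01 and 10.79, the Hdac1 knockout 10.91, 10.83, 10.85 and 10.85, and the Hdac2 knockout 10.81, 10.78, 10.78 and 10.80. The double knockout read 10.30, 10.50, 10.32 and 10.50, below all 12 other arrays. Against wild type the change was -0.43 ± 0.06 (SE, n = 4 and 4), which leaves 74.2% of the signal (95% interval 67.6 to 81.4%, adjusted p = 3.65e-05, limma). In order of level the Hdac1 knockout (10.86), wild type (10.84) and Hdac2 knockout (10.79) were not told apart by the test, with adjusted p = 0.946 and 0.786 (limma) for the Hdac1 and Hdac2 knockouts against wild type. The arrays of the single knockouts did not overlap with each other, at 0.07 apart (adjusted p = 0.607, limma). The step down from the Hdac2 knockout to the double knockout did pass (-0.39 ± 0.06, adjusted p = 1.47e-04, limma).

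Ezh1, the catalytic subunit best known from cells that have stopped dividing, fell by a similar amount. Its arrays read 8.39, 8.42, 8.62 and 8.49 in wild type, 8.55, 8.40, 8.30 and 8.49 with Hdac1 deleted, and 8.41, 8.18, 8.30 and 8.35 in the Hdac2 knockout. The double knockout read 7.98, 8.11, 8.03 and 8.11, again below every other array. The change was -0.42 ± 0.07 (SE, n = 4 and 4), leaving 74.6% of wild type (95% interval 67.3 to 82.6%, adjusted p = 1.18e-04, limma). Wild type (8.48), Hdac1 knockout (8.43) and Hdac2 knockout (8.31) overlapped. The Hdac2 knockout lay 0.17 below wild type with an unadjusted p of 0.0282 from limma, which did not pass after adjustment (0.197). The double knockout differed from the Hdac2 knockout by -0.26 ± 0.07 (adjusted p = 0.00898, limma).

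Ezh2, the alternative catalytic subunit, was called in no contrast. Wild type arrays ran from 11.55 to 11.70, those of the Hdac1 knockout from 11.44 to 11.59, those of the Hdac2 knockout from 11.56 to 11.68 and those of the double knockout from 11.55 to 11.59. All 4 ranges overlap. The change in the double knockout was -0.02 with a 95% interval of -0.13 to 0.09 (98.5% of wild type, adjusted p = 0.800, limma), so a fall as large as that of Ezh1 lies outside its interval. The whole range over 16 arrays was 0.26, the smallest among the members.

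Eed, which binds methylated H3K27 and activates the enzyme, fell on its bright probe set. It read 10.17, 10.19, 10.43 and 10.26 in wild type, 10.20, 10.14, 10.12 and 10.19 with Hdac1 deleted, and 10.19, 10.14, 10.17 and 10.21 in the Hdac2 knockout. In the double knockout it read 9.85, 9.90, 9.83 and 9.90, below all other arrays. The change was -0.39 ± 0.06 (SE, n = 4 and 4), leaving 76.1% (95% interval 70.2 to 82.6%, adjusted p = 2.50e-05, limma), and the single knockouts kept 93.3% and 94.2% without passing the test. The second Eed probe set, near the dim end of the table at 3.64 in wild type and 3.44 in the double knockout, changed by -0.19 ± 0.12 and was not called (adjusted p = 0.213, limma).

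Jarid2, a cofactor that helps to bring PRC2 to its sites, fell least of the 4. Its arrays read 9.80, 9.91, 9.96 and 9.89 in wild type, 9.99, 9.89, 9.98 and 9.88 with Hdac1 deleted, 9.90, 9.92, 9.90 and 9.88 in the Hdac2 knockout, and 9.78, 9.81, 9.66 and 9.76 in the double knockout. Of the wild type arrays, 1 lay within the double knockout range. The change was -0.14 ± 0.05 (SE, n = 4 and 4), leaving 91.0% (adjusted p = 0.0443, limma), and it lost the call in 11 of the 16 fits that left out 1 array. Leaving out wild type replicates 2, 3 or 4 gave a limma adjusted p of 0.0958, 0.122 and 0.0766, and it was 0.0502 without Hdac1 knockout replicate 2. It was 0.0530, 0.0545, 0.0542 and 0.0528 without Hdac2 knockout replicates 1 to 4, and 0.0568, 0.142 and 0.0699 without double knockout replicates 1, 3 and 4. Ezh1, Eed and Suz12 kept theirs in all 16 such fits.

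None of the PRC1 genes was called in the double knockout against wild type (0 of 5), beside 38.3% of all probe sets called. There 0 had an unadjusted limma p under 0.05, and Cbx7 was called under 2 other scalings, given below. Rnf2, the main H2A ubiquitin ligase, lay between 10.19 and 10.31 in wild type and 10.21 and 10.31 in the double knockout, a difference of 0.02 (95% interval -0.11 to 0.14). Ring1, its paralog, lay between 5.56 and 5.74 and between 5.56 and 5.95, a difference of 0.12 (-0.09 to 0.32). Bmi1, a ring finger partner of the ligases, differed by 0.08 (-0.10 to 0.26), from 10.64 to 10.83 in wild type and from 10.71 to 10.99 in the double knockout. For Rnf2, Ring1 and Bmi1 the 4 genotypes overlapped, and no contrast was called.

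The chromodomain proteins Cbx2 and Cbx7, which read methylated H3K27, were called lower in the double knockout against the Hdac1 knockout, but not against wild type. Cbx2 read 9.40, 9.50, 9.29 and 9.39 in wild type, 9.68, 9.61, 9.73 and 9.49 with Hdac1 deleted, 9.31, 9.44, 9.50 and 9.27 in the Hdac2 knockout, and 9.48, 9.36, 9.32 and 9.33 in the double knockout. The Hdac1 knockout had the highest mean, 0.24 ± 0.07 above wild type, with the smallest unadjusted p of the members in that contrast (0.00379), and the difference did not pass after adjustment (0.327, limma). Cbx7 read 6.16, 6.15, 6.00 and 6.25 in wild type, 6.46, 6.41, 6.29 and 6.19 with Hdac1 deleted, 5.97, 6.43, 6.18 and 6.17 in the Hdac2 knockout, and 5.99, 5.92, 5.78 and 6.10 in the double knockout. Its mean was lowest in the double knockout, a difference of -0.19 ± 0.09 from wild type with overlapping arrays (adjusted p = 0.125, limma). That difference became a call with arrays centred on their medians (-0.28, adjusted p = 0.0265, limma) or quantile normalized (-0.24, adjusted p = 0.0491, limma).

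**Figure D2:**
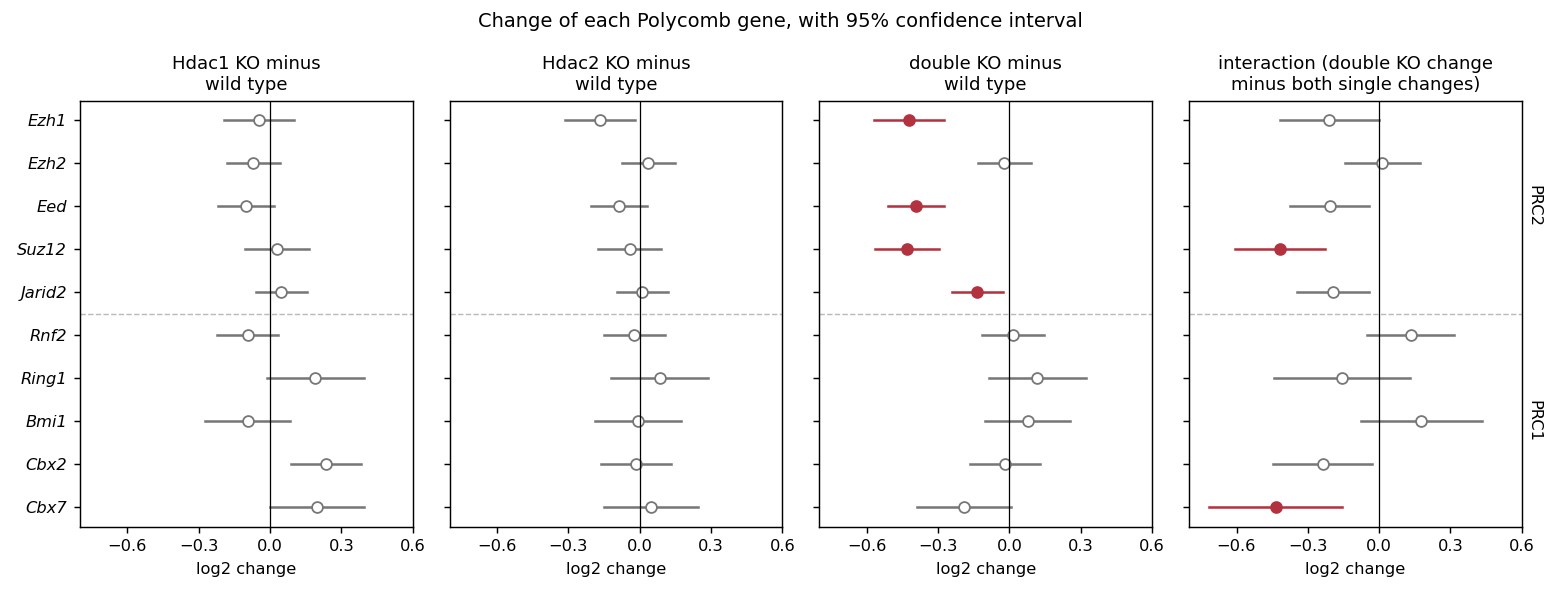
Log2 change (point) with its 95% confidence interval (line) for each Polycomb gene in the 3 knockouts against wild type, and the interaction, which is the double knockout change minus both single knockout changes. Red filled points passed an adjusted p of 0.05, which no gene did in either single knockout, 4 PRC2 genes did in the double knockout, and Suz12 and Cbx7 did in the interaction.

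In the Hdac1 knockout 0 of 10 members were called, beside 0.0707% of all probe sets, and 1 had an unadjusted limma p under 0.05 (Cbx2). In the Hdac2 knockout 0 of 10 were called, beside 5.59% of all probe sets, and 1 had an unadjusted limma p under 0.05 (Ezh1). The 95% intervals allow modest changes, since in the Hdac1 knockout they ran from -0.27 for the lower bound of Bmi1 to 0.40 for the upper bound of Cbx7. The Bmi1 change of -0.09 there was -0.003 without Hdac1 knockout replicate 1.

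The double knockout was also set against each single knockout, comparisons that share its 4 arrays with the one against wild type. Against the Hdac1 knockout 6 of 10 members were called, all lower, beside 38.7% of all probe sets called in either direction. Suz12 changed by -0.46 ± 0.06, Ezh1 by -0.38 ± 0.07, Eed by -0.29 ± 0.06 and Jarid2 by -0.18 ± 0.05. The added calls were Cbx7 (-0.39 ± 0.09, adjusted p = 0.00307, limma) and Cbx2 (-0.25 ± 0.07, adjusted p = 0.00747, limma). In all 6 genes the double knockout arrays lay below every Hdac1 knockout array. Against the Hdac2 knockout 4 of 10 were called, all lower, beside 33.7% called in either direction. These were again Suz12, Ezh1, Eed (-0.31 ± 0.06) and Jarid2 (-0.15 ± 0.05, adjusted p = 0.0345, limma). Cbx7 differed there by -0.24 ± 0.09 and was not called (adjusted p = 0.0609, limma), but it was called with centred arrays, with quantile normalization and with dim probe sets left out, each giving 5 members. The Jarid2 call was lost with the replicate block, with only the arrays compared and in 6 of 16 fits, without each Hdac2 knockout array and without double knockout replicates 3 and 4, and Cbx7 was called instead without Hdac2 knockout replicate 1 or double knockout replicate 4.

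Between the single knockouts 1 of 10 members was called, beside 5.78% of all probe sets. Cbx2 was lower in the Hdac2 knockout than in the Hdac1 knockout by -0.25 ± 0.07 (adjusted p = 0.0438, limma), with 1 array of each genotype crossing the other range. The call rested on a narrow margin, since it was lost in 10 of the 16 fits without 1 array, which left 0 members called. These left out wild type replicates 1 and 4, Hdac1 knockout replicates 1, 2 and 3, Hdac2 knockout replicates 1, 2 and 4, or double knockout replicates 2 and 4.

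The interaction asks whether the double knockout change differs from the sum of both single changes. It was called in 2 of 10 members, both below the sum, beside 23.3% of all probe sets called in either direction. Suz12 lay 0.03 above wild type in the Hdac1 knockout, 0.04 below it in the Hdac2 knockout and 0.43 below it in the double knockout, giving an interaction of -0.42 ± 0.09 (adjusted p = 0.00267, limma). This call held in all 16 fits without 1 array. Cbx7 lay 0.20 above wild type in the Hdac1 knockout, 0.05 above it in the Hdac2 knockout and 0.19 below it in the double knockout, giving -0.44 ± 0.13 (adjusted p = 0.0250, limma). None of those 3 Cbx7 changes passed on its own, and the interaction was lost in 5 of the 16 fits, with adjusted p = 0.0521 without replicate 3 of the wild type, 0.0519 and 0.0501 without replicates 1 and 2 of the Hdac1 knockout, 0.0509 without replicate 2 of the Hdac2 knockout and 0.0533 without replicate 3 of the double knockout. Ezh1 (-0.21 ± 0.10, adjusted p = 0.144), Eed (-0.21 ± 0.08, 0.0685) and Jarid2 (-0.19 ± 0.07, 0.0632) did not pass (limma). Without wild type replicate 3, Eed (0.0097) and Jarid2 (0.0473) did pass, and without Hdac1 knockout replicate 4, Cbx2 did (0.0466, against 0.0940 with all arrays).

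Each member's pattern over the 16 arrays was set against all other tested genes, as a description without a test. The arrays fall into 4 genotypes, so r is also given for deviations from the genotype means, within genotypes. Suz12 was most like Cd2ap (r = 0.977, within genotypes 0.849) and Dhx40 (0.975, 0.787). Eed was most like Xrn2 (0.969, 0.764) and Myef2 (0.969, 0.874), and Ezh1 like Poli (0.948, 0.790) and Myef2 (0.946, 0.886). Jarid2 followed Txndc2 (0.929, 0.762) and Zfp407 (0.927, 0.810). The nearest genes of Ezh2 were Phip (0.897, 0.836) and Sec63 (0.880, 0.893). Rnf2 and Bmi1 shared their nearest genes. These were Chmp1b (0.931, 0.910 for Rnf2 and 0.923, 0.911 for Bmi1) and Morf4l1 (0.927, 0.926 and 0.907, 0.896). Both members read lowest on the same array, Hdac1 knockout replicate 1 (9.96 and 10.39), and neither was called in any contrast. How far that array sets these r was not tested. Ring1 was closest to Txndc11 (0.810, 0.800) and Klhl26 (0.803, 0.885), Cbx2 to Popdc2 (0.914, 0.912) and Ilrun (0.905, 0.756), and Cbx7 to Coq7 (0.910, 0.804) and Lsm3 (0.905, 0.769).

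Other genes of the pathway are given by list, beside the background above (18.5% higher, 19.8% lower and a median of -0.01 in the double knockout). Subunits and partners of PRC2 went both ways. Of 9 measured, 2 were higher, 3 lower and 4 not called, with a median of -0.11. Lcorl, which with Lcor gives rise to PRC2 partner proteins, rose 1.63-fold (6.58 ± 0.04 to 7.28 ± 0.13, SD, n = 4), while Lcor fell by 0.26. Epop, a substoichiometric PRC2 partner, rose 1.36-fold from a low signal of 4.68. The Polycomb-like protein Phf1 fell by 0.29 and the DNA-binding cofactor Aebp2 by 0.24. With centred arrays 2 were higher and 6 lower, and with quantile normalization 2 and 5.

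Among 29 other measured PRC1 genes, 11 were higher and 8 lower in the double knockout, with a median of -0.04. Bcor, a corepressor subunit of a variant PRC1, rose 4.02-fold, from 5.94 ± 0.36 to 7.95 ± 0.13, and stood at 5.86 ± 0.07 with Hdac1 deleted and 7.36 ± 0.12 with Hdac2 deleted (SD, n = 4). Fbrs rose 1.33-fold and Yaf2, which binds the ring finger ligases, 1.41-fold. The probe sets of Phc3 disagreed in size. The counted one rose 1.25-fold, and a second, not counted (8.03 in wild type), rose 2.27-fold (adjusted p = 1.73e-10, limma). Scml2, an X-linked Polycomb protein of the germ line, fell by 1.26, from 9.33 ± 0.16 to 8.07 ± 0.26. Wdr5, a subunit of a variant PRC1 and of other chromatin complexes, fell by 0.38 and Pcgf3, a ring finger partner, by 0.32. The balance turned to 8 higher and 11 lower with centred arrays and was 10 and 9 with quantile normalization. Without double knockout replicate 4 it was 10 higher and 5 lower. With Hdac2 deleted alone 5 of the 29 were higher and 0 lower, beside 5.59% of all probe sets called in either direction. These were Bcor (2.68-fold), Bcorl1 (1.42-fold), Fbrs (1.27-fold), Kdm2b (1.22-fold) and Phc1 (1.20-fold), named for being the whole count of counted probe sets. The second Phc3 probe set was also higher there (1.33-fold, adjusted p = 7.56e-04, limma), while the counted one was not called (0.338). Phc1 lost its call in 4 of 16 fits without 1 array, by wild type replicates 1 and 3 (adjusted p = 0.0685 and 0.0717, limma) and Hdac2 knockout replicates 1 and 4 (0.0552 and 0.0584).

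**Figure D3:**
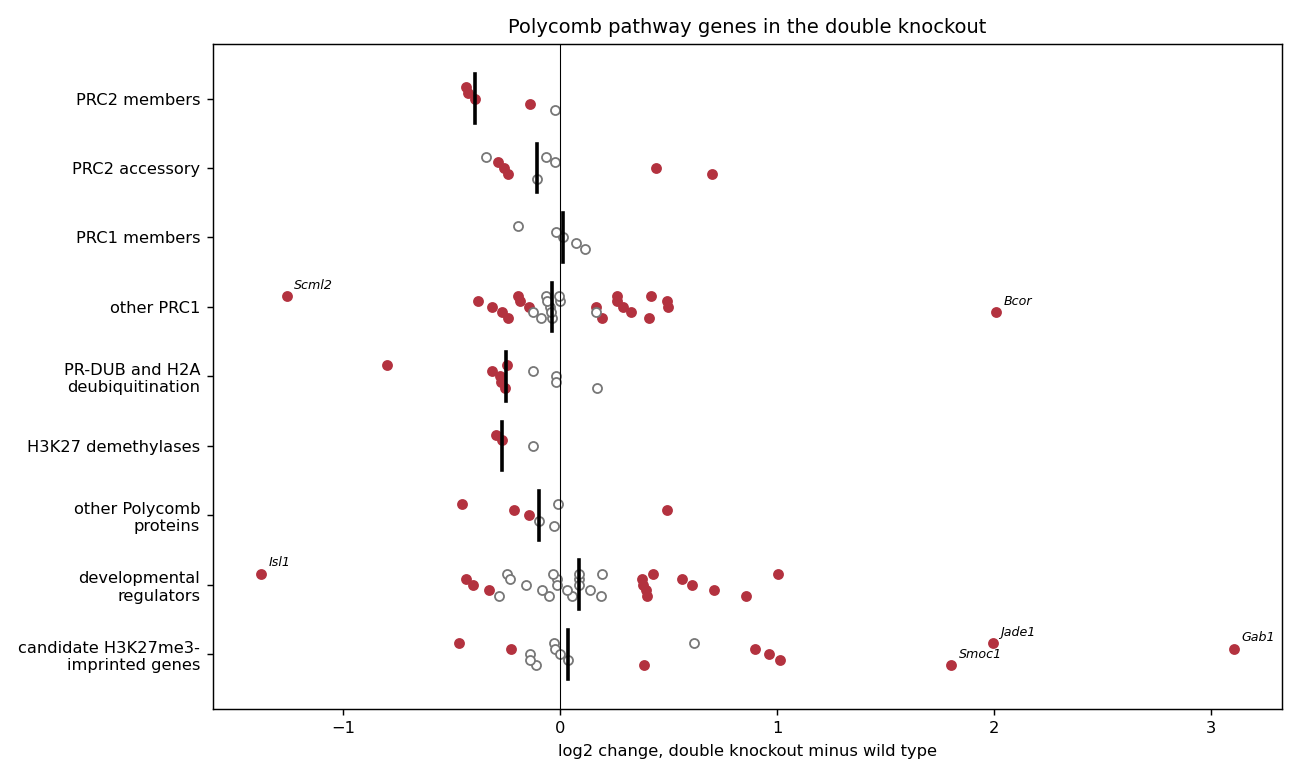
Log2 change in the double knockout against wild type for each gene (point) of the members and of 7 Polycomb pathway lists, with the list's median (vertical bar); red filled points passed an adjusted p of 0.05. The largest rises are Gab1 (3.11), Bcor (2.01), Jade1 (2.00) and Smoc1 (1.80), and the largest falls Isl1 and Scml2.

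Genes of H2A deubiquitination or the PR-DUB complex, and H3K27 demethylase genes, were with all arrays called lower or not called in the double knockout. Of 10 measured genes that remove ubiquitin from H2A or belong to the PR-DUB complex, 6 were lower and 0 higher in the double knockout, with a median of -0.25, a split that centring and quantile normalization left at 6 and 0. It became 5 lower and 1 higher without double knockout replicate 2, 6 and 1 without its replicate 4, and 5 and 0 without wild type replicate 2. None of the 10 lay below the median signal of all tested probe sets, a background that includes dim ones. Asxl3, a cofactor of the deubiquitinase Bap1, fell by 0.80 (7.62 ± 0.13 to 6.82 ± 0.23, SD, n = 4), Usp16 by 0.31 and the sugar transferase Ogt by 0.24. Asxl3 was also lower in the Hdac2 knockout (7.22 ± 0.08, adjusted p = 0.0260, limma), a call lost in 5 of 16 fits, without wild type replicates 3 and 4 (0.0851 and 0.0509) and Hdac2 knockout replicates 1, 3 and 4 (0.0780, 0.0550 and 0.0653). Of the H3K27 demethylases, Kdm6a fell by 0.27 (adjusted p = 0.00497, limma) and Kdm6b by 0.29 (adjusted p = 0.00951, limma), while a dim second Kdm6b probe set (4.26 in wild type) differed by -0.13 and was not called (adjusted p = 0.307, limma). The third, Uty, is carried on the Y chromosome, which oocytes lack, and its probe set was dim (3.06 in wild type). Kdm6b also lay below the sum of the single changes, by -0.69 ± 0.12 (adjusted p = 4.68e-04, limma), as did Kdm6a by -0.38 ± 0.10 (adjusted p = 0.0103, limma). The Uty probe set was called in the interaction too, by -0.28 ± 0.09 (adjusted p = 0.0326, limma), although oocytes lack that gene. Such a call on a dim probe set does not by itself show RNA of its gene.

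Of 7 other measured Polycomb proteins 1 was higher and 3 lower in the double knockout. Yy1, the mammalian homolog of the fly DNA-binding Polycomb protein, rose 1.41-fold (8.85 ± 0.06 to 9.34 ± 0.05, SD, n = 4). Cdyl, a chromodomain protein that binds methylated H3K27, fell by 0.45 and Mbtd1 by 0.21. The probe sets of Sfmbt1, a gene with MBT repeats, disagreed in size. The one with the highest mean (10.87 in wild type) fell by 0.14 and the other (10.52) by 0.52 (adjusted p = 1.94e-06, limma). The call of the first was lost with the replicate block (0.0568), with only the arrays compared (0.0581) and in 4 of 16 fits, without wild type replicates 2 and 3 (adjusted p = 0.0631 and 0.0908, limma) and double knockout replicates 2 and 3 (0.0598 and 0.0834).

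Of 31 measured developmental regulators that are textbook Polycomb targets, 10 were higher and 4 lower in the double knockout, and 24 lay below the median signal of 5.27 of all tested probe sets. Foxa1, a pioneer factor of endoderm, rose 2.01-fold from 4.15 ± 0.10 to 5.15 ± 0.43, the mesoderm factor Eomes 1.81-fold from 3.79 ± 0.10, and the homeobox gene Msx1 1.52-fold from 4.58 ± 0.08 (SD, n = 4). All 3 started from dim signals below that median, and without detection calls their folds are uncertain. Isl1, a LIM homeobox factor, fell by 1.38 from 6.76 ± 0.21 to 5.38 ± 0.19, Gsc by 0.40 and Evx1 by 0.33. The median change was 0.09, and with centred arrays it was -0.01 with 9 higher and 6 lower. In the Hdac2 knockout 2 were higher (Gata4, 1.60-fold from 6.15, and Tbx5) and 1 lower (Nkx2-5), beside 5.59% of all probe sets called. Tbx5 read 3.37 in wild type and 3.93 there, near the signal of Uty, and the table carries no detection calls, so no fold is given. Nkx2-5, also dim, read 4.44 and 4.18. Its call was lost with the replicate block (0.0516), all probe sets tested (0.0675), an intensity trend (0.0634) and only the arrays compared (0.0940), and in 7 of 16 fits, without wild type replicates 1, 3 and 4 (adjusted p = 0.0531, 0.112 and 0.127, limma), Hdac1 knockout replicate 2 (0.0520) and Hdac2 knockout replicates 2, 3 and 4 (0.0901, 0.0673 and 0.123).

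Among 17 measured genes listed as candidates for imprinting through maternal H3K27 methylation, 7 were higher and 2 lower in the double knockout, and 11 were below the median signal. Gab1, a docking protein of receptor tyrosine kinases, rose 8.61-fold, from 5.49 ± 0.18 to 8.60 ± 0.11, with 5.48 ± 0.16 after loss of Hdac1 and 6.02 ± 0.23 after loss of Hdac2 (SD, n = 4, adjusted p = 3.75e-12, limma). Jade1, a subunit of an acetyltransferase complex, rose 3.99-fold from 4.96 ± 0.22 to 6.95 ± 0.04, and the splicing regulator Mbnl2 1.87-fold from 4.28 ± 0.16. For these 3 genes the double knockout also exceeded the sum of the single changes, by 2.59 ± 0.16, 2.15 ± 0.24 and 0.98 ± 0.14 (adjusted p = 7.59e-09, 8.81e-06 and 1.26e-04, limma). Rbms1, an RNA-binding protein, fell by 0.47. The other gene called lower, Otogl, read 3.68 in wild type and 3.46 in the double knockout, at the dim end of the table, and its second probe set differed by -0.03. The Otogl call was lost with all probe sets tested (0.0542), with only the arrays compared (0.0504) and in 6 of 16 fits, without wild type replicates 1, 3 and 4 (adjusted p = 0.128, 0.0546 and 0.0842, limma) and double knockout replicates 1, 2 and 4 (0.0615, 0.0878 and 0.0612). In the Hdac2 knockout, where 5.59% of all probe sets were called, Gab1 (1.44-fold) and Smoc1 (3.07-fold) were higher and Rbms1 lower, by 0.51. Smoc1, a secreted matrix protein, was singled out after its values were seen, and it rose 3.49-fold in the double knockout. The list's median was 0.04, and with centred arrays -0.05 with 7 higher and 3 lower. In the Hdac1 knockout none of the genes of the 7 lists was called (0 in each list), beside 0.0707% of all probe sets.

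**Figure D4:**
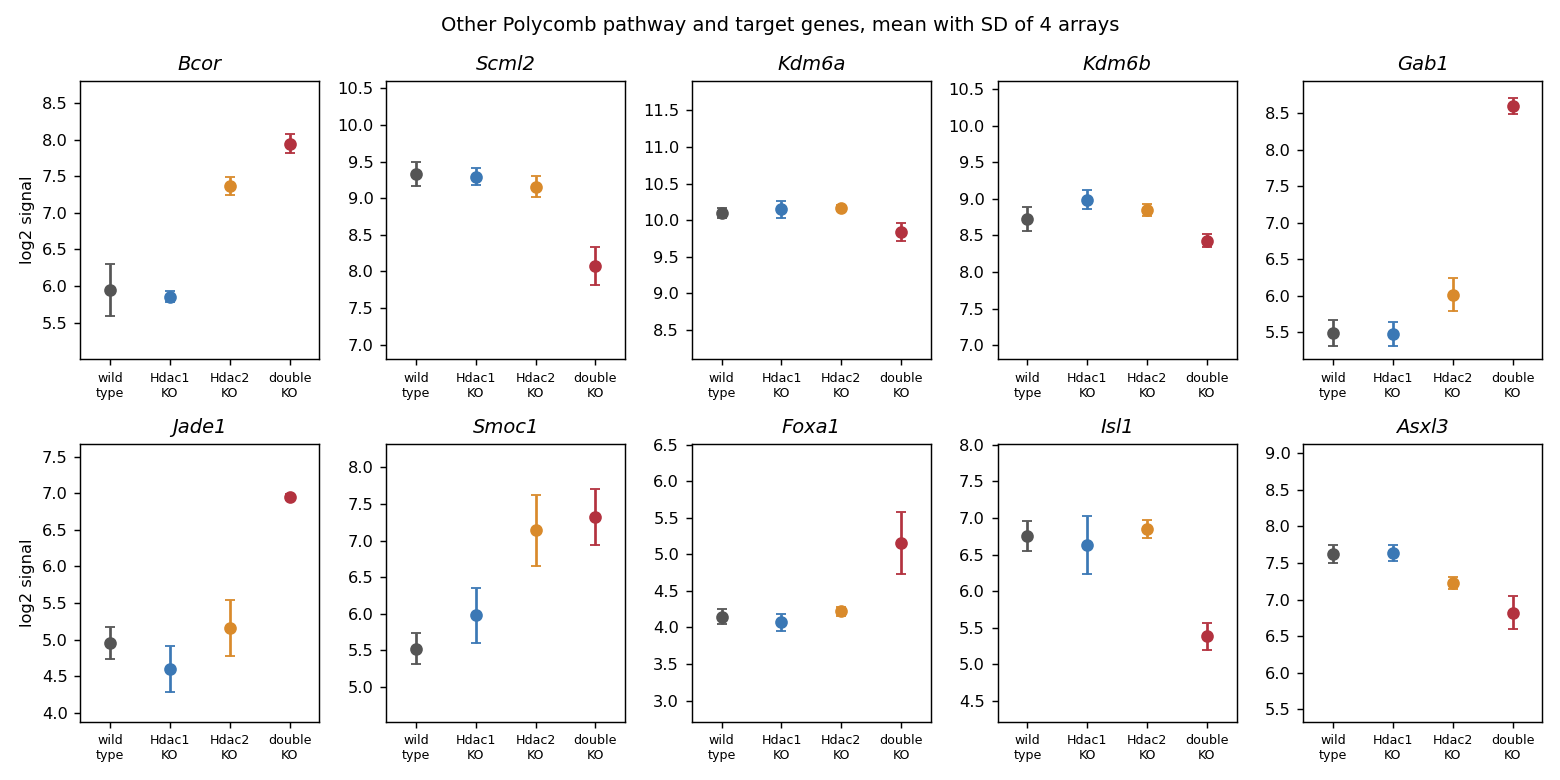
Mean log2 signal with SD (n = 4 arrays) of 10 other Polycomb pathway and target genes in the 4 genotypes, on vertical axes of equal span. Gab1 rises from 5.49 in wild type to 8.60 in the double knockout, Bcor already stands at 7.36 in the Hdac2 knockout, and Scml2, Asxl3 and Isl1 are lowest in the double knockout.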

How the data were processed

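RNA from 16 oocyte samples was read on Affymetrix Mouse 1.1 ST arrays after amplification and biotin labelling, per the labels' protocols. The authors deposited a table of 35556 probe sets by 16 arrays, whose values are read here as log2 signals. MAS5 is named in the submitters' processing notes (version not given). Amplification and probe set summaries can compress differences, and the number of arrays limits precision.

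Genes were named from the platform annotation: 21218 probe sets had 1 symbol and were tested, 1881 had several and 12457 none, and these were left out. A gene with several probe sets was counted by the one with the highest mean. The values were used as deposited (largest quartile distance of an array 0.103, limit 0.2). One limma 3.58.1 model (R 4.3.3) with 1 mean per genotype was fitted to 16 arrays, with 12 residual degrees of freedom, 7 contrasts, two-sided p-values and Benjamini-Hochberg adjustment over 21218 probe sets. Tested on simulated data, the double knockout comparison recovered 14% of probe sets given a log2 change of 0.2, 60% at 0.4, 96% at 1 and 100% at 2, over 21218 probe sets. Only a small part of the probe sets was changed in that simulation, so the rates need not hold where many change.

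All 10 members were described, with up to 3 rising and 3 falling genes of each of 7 pathway lists ranked by adjusted p in that comparison, and the 2 most correlated genes of each member. Listed genes without a probe set of 1 symbol were not analysed here. The members and lists were chosen with earlier results of these data known. Alternatives changed the scaling, filters, error model, probe sets, arrays in the fit, a replicate block and a 1.4-fold limit named in the design text. Replicate numbers did not pair the arrays. Promoters came from the RefSeq table of GRCm38.p6.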

Additional observations from a re-analysis of the deposited data

Results flagged for a closer look

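Of 40 groups of 4 arrays (10 genes in 4 genotypes), 4 held an array far from the other 3, where chance alone gives about 1 in 20. That rate takes the groups as independent, which genes read on the same arrays are not. In wild type, replicate 3 was the highest for Suz12 (11.01, next 10.79) and for Ezh2 (11.70, next 11.57). The same array was also the highest of wild type for Ezh1 (8.62), Eed (10.43), Jarid2 (9.96) and Rnf2 (10.31). It was the lowest for Ring1 (5.56), Cbx2 (9.29) and Cbx7 (6.00). In the Hdac1 knockout, replicate 1 was the lowest for Rnf2 (9.96, next 10.20) and for Bmi1 (10.39, next 10.75). Without wild type replicate 3, Suz12, Ezh1 and Eed stayed called in the double knockout and Jarid2 did not.

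The response to losing both genes differed from the sum of the single responses for Suz12 (interaction -0.42) and Cbx7 (interaction -0.44), by the limma test of the interaction itself.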

How the results depend on the processing

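In the double knockout against wild type, 3 to 5 of 10 members were called under every alternative but 1. Ezh1, Eed and Suz12 kept their calls except under the 1.4-fold limit (all 3) and with the dim second probe set (Eed). Requiring at least 1.4-fold left 0 members for the double knockout against wild type, 0 against the Hdac1 knockout, 0 against the Hdac2 knockout, 0 between the single knockouts and 0 in the interaction. The Cbx2 difference between the single knockouts (1 called) also went to 0 with all probe sets tested, with the replicate block and with only the arrays compared, and leaving out 1 array gave 0 to 1. The interaction (2 called) gave 4 with arrays centred, quantile normalization, dim probe sets left out or an intensity trend, adding Eed and Jarid2, and leaving out 1 array gave 1 to 3. The causes of these shifts were not tested.

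The replicate block lowered the double knockout count from 4 to 3, by Jarid2 (adjusted p = 0.0759, limma), and arrays of 1 number did not deviate together (24 pairs, r from -0.148 to 0.087). Jarid2 was also lost with all probe sets tested (0.0569), array weights (0.0586) and only the arrays compared (0.107), and Cbx7 was gained with centred arrays and quantile normalization. Centring moved the median of all probe sets in the double knockout from -0.01 to -0.10. With 4 arrays a group, changes of 0.4 were recovered in 60% of simulated cases and those of 0.2 in 14%. Only a small part of the probe sets was changed in that simulation, while 38.3% were called in the double knockout against wild type. The simulated rates therefore need not hold for that comparison, and do not settle which changes of the uncalled members were detectable. Jarid2 was called there at -0.14, while Cbx7 was not at -0.19. A missing call does not exclude a small change.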
